A study of Rattus norvegicus with 6 samples.

Results

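Col1a1, Col1a2, Col3a1, Fn1 and Sparc are 5 genes of the extracellular matrix, each measured by 1 probe among the 20174 rat genes on an array of cultured oligodendrocyte precursors. They were chosen by their Ensembl identifiers: ENSRNOG00000003897 for Col1a1, ENSRNOG00000011292 for Col1a2, ENSRNOG00000003357 for Col3a1, ENSRNOG00000014288 for Fn1 and ENSRNOG00000012840 for Sparc. The symbols came with the choice of genes. The files used here hold identifiers alone, and the reference gene table matched 0 of the 20174, so these pairings were not checked here. The study set differentiated cells, at day 3 after a change of growth factors, against precursors grown in Raff medium, at day 0. There were 3 arrays at each day. At each day 2 arrays carry a number in the title (number 1 and number 2) and 1 is unnumbered in another style of title. The labels name no strain, age or sex, and do not say whether the arrays of a day came from separate cultures, so a p-value here reflects array-to-array spread alone, some of which may be technical. The arrays were read in 1 colour, Cy5.

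Fibrillar collagens are the load-bearing fibres of connective tissue. Col1a1 and Col1a2 encode the chains of type I collagen, which assemble with each other into 1 molecule, and Col3a1 encodes the chain of type III collagen, which is found together with type I in elastic and vascular tissue. Fn1 encodes fibronectin, a secreted glycoprotein that binds integrins and collagen and is assembled into fibrils at the cell surface. Sparc encodes a secreted collagen-binding glycoprotein that regulates how cells attach to matrix rather than forming fibres itself. In the brain, types I and III collagen belong mainly to the meninges and the walls of vessels, made by fibroblasts and pericytes, and oligodendrocyte lineage cells are not known as their main source. Genes defining those cell types, astrocytes, microglia, neurons or the oligodendrocyte lineage could not be looked up without symbols, so the labelled cell type was not checked against its markers and their part in the results was not tested.

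Each of the 5 genes exceeded its array's detection limit on 6 of 6 arrays, as did 71.5% of gene spots. The limit was the mean plus 2 SD of each array's blank spots after the top and bottom 5% of them were removed, and lay between 13.9 and 16.9 scanner units. The lowest member reading was that of Col1a1 on day 3 number 2, at 1.93 times the limit. The highest was that of Sparc on the unnumbered day 3 array, at 43.7 times the limit. In whole RNA of a culture, fewer cells of a type and less RNA per cell cannot be told apart.

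The start region of a member was held in the RefSeq promoter table (assembly GRCr8) for 2 of the 5 genes, Col1a2 and Sparc. Both are shown because they were the only ones found, and the readings played no part in that choice. Each window runs from 250 bases before the start of the gene to 50 after it, 5′ to 3′ on the gene's strand. Capitals mark matches of 3 motifs, each searched on both strands: the CCAAT box (searched as CCAAT), the TATA box (searched as TATAAA) and the GC box (searched as GGGCGG). The Col1a2 window (chr4:33518307-33518606, plus strand) held 1 CCAAT box on the reverse strand, read here as ATTGG, and 1 TATA box on the forward strand, with no overlap. Both matches lay toward the 5′ end of the window, far before the start of the gene, and whether they serve that start was not tested. The Sparc window (chr10:40038767-40039066, minus strand) held 0 matches of the 3 motifs. Of 33469 such windows, 37.5% held the CCAAT box, 14.2% the TATA box and 33.1% the GC box on either strand. The arrays measured no binding at these windows, and a match or its absence is a description of the letters.
Col1a2: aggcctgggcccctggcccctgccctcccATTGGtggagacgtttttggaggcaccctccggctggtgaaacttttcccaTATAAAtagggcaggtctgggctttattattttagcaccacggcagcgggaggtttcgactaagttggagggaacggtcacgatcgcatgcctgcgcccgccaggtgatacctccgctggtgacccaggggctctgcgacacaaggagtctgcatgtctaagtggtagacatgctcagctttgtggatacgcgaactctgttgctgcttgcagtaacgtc
Sparc: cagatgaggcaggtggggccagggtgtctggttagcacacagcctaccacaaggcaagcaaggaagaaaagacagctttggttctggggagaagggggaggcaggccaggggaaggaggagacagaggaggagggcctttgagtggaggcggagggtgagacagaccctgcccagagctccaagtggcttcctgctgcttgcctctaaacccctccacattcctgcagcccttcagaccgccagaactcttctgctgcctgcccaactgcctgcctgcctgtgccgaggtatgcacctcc

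The 3 collagens were high on both arrays numbered 1, whatever the day. The Col1a1 spot read 179, 30.2 and 40.4 scanner units at day 3 (number 1, then number 2, then unnumbered), against 165, 51.0 and 79.3 on the matching day 0 arrays. The day 3 and day 0 readings overlapped, and the number 1 array was the highest of each day. Col1a2 read 370, 98.9 and 87.6 units on the day 3 arrays, against 278, 132 and 138 on the day 0 arrays. Its number 1 arrays again stood above the other 4, which lay between 87.6 and 138. The Col3a1 spot read 284, 49.4 and 50.9 units at day 3, against 354, 99.1 and 178 at day 0. For this chain of type III collagen the number 1 array of day 3 lay above the other 2 day 0 arrays, while the other 2 day 3 arrays lay below all 3.

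**Figure D1:**
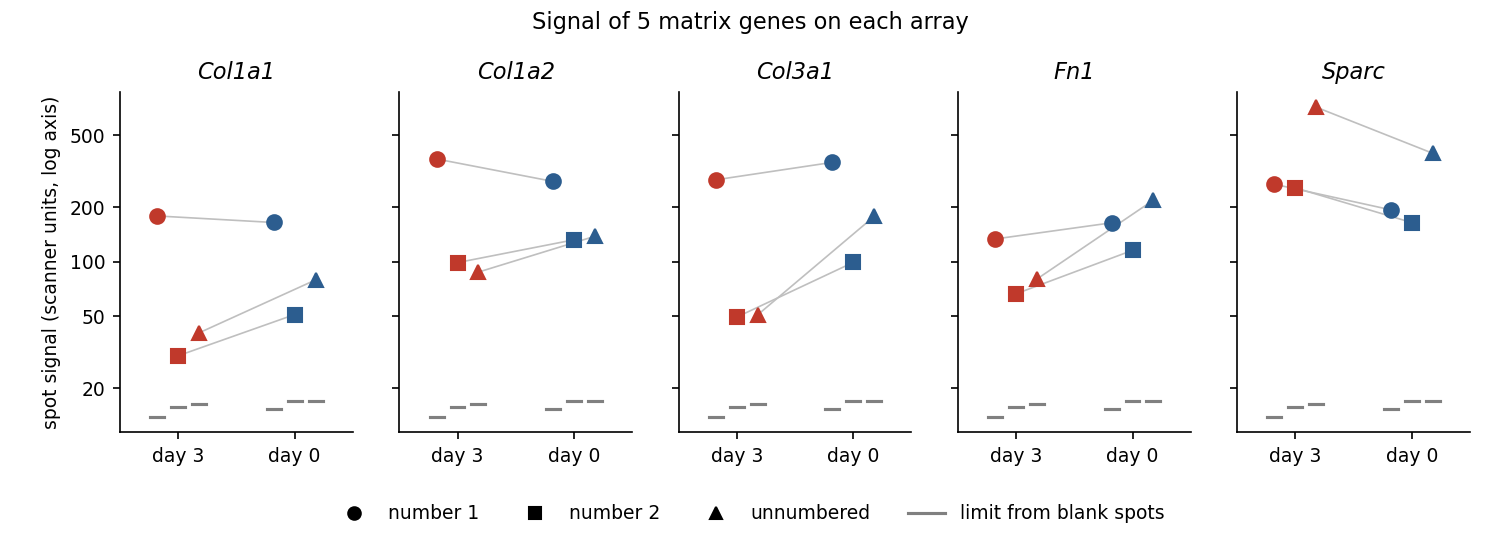
Spot signal in scanner units (log axis) of the 5 genes on each array, day 3 in red on the left and day 0 in blue on the right of each panel, with grey lines joining arrays of the same number or title style and short grey bars at each array's blank-spot limit. The 3 collagens are highest on the number 1 arrays and Sparc is highest on the unnumbered arrays, and the day 3 and day 0 points of each gene overlap.

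The spread within a day was wide for these collagens. The highest day 3 reading was 5.93 times the lowest for Col1a1, 4.22 times for Col1a2 and 5.75 times for Col3a1. At day 0 the same ratios were 3.23, 2.10 and 3.58. On the log2 signal scale (log2 of signal plus 50, quantile normalised), the SD within days was 0.75 for Col1a1, 0.75 for Col1a2 and 0.90 for Col3a1, against a median of 0.14 over the 15437 genes tested. Of those genes, 99.1%, 99.1% and 99.6% had a smaller SD than Col1a1, Col1a2 and Col3a1. The median gene signal was 26.4 to 38.9 units per array, below the offset of 50, which narrows the SD of dim genes. These ranks therefore depend in part on brightness, and genes of like signal were not compared.

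Fibronectin was highest on the number 1 array at day 3, as the collagens were, but not at day 0, and Sparc was so on neither day. The Fn1 spot read 134, 66.5 and 80.3 units at day 3, against 164, 116 and 219 at day 0, with the arrays in the same order as before. Its highest reading was on the unnumbered day 0 array, and day 3 number 1 was the only day 3 array above the lowest day 0 reading. Sparc read 268, 256 and 715 units at day 3, against 194, 165 and 398 at day 0. The unnumbered arrays were the highest of both days, and each day 3 reading was above the day 0 reading of the same number or title style. The SD within days was 0.38 for Fn1 and 0.61 for Sparc, wider than in 87.4% and 97.7% of the genes tested, many of them dimmer and narrowed by the offset.

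Each gene's spread over the 6 arrays was divided between the day, the number or title style (number 1, number 2 or unnumbered) and the rest, on the log2 signal scale. The number or style held 89.2% of the sum of squares of Col1a1, 85.2% of that of Col1a2 and 79.6% of that of Col3a1, against 30.6% for Fn1 and 61.2% for Sparc. The median over all genes tested was 48.5%. Of those genes, 90.6%, 86.7% and 81.1% had a smaller share than Col1a1, Col1a2 and Col3a1, 32.1% than Fn1 and 62.5% than Sparc. The number or style has more levels than the day, which by itself favours a larger share. Each share is therefore to be read against its own median rather than against the other share. Day held 0.53%, 0.35% and 9.8% for the 3 collagens, 30.8% for Fn1 and 38.6% for Sparc, against a median of 17.7%. For Sparc the rest was 0.14%, so that its readings were close to a sum of a day step and a number or style step. The labels do not say what sets arrays of different number apart.

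**Figure D2:**
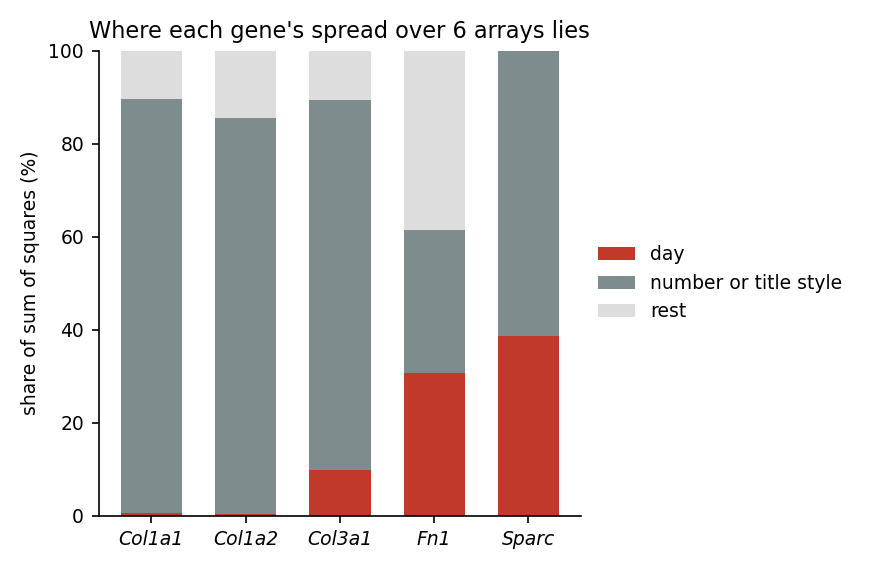
Share of each gene's sum of squares over 6 arrays (log2 signal scale, in %) that lies with the day (red), with the number or title style (dark grey) and with the rest (light grey). The number or title style holds 79.6% to 89.2% for the collagens, and the share of day is largest in Sparc, at 38.6%.

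The collagens followed each other over the 6 arrays. Pearson's r of the log2 signal was 0.97 for Col1a1 with Col1a2 (exact permutation p = 0.0069, adjusted over 10 pairs of genes 0.023). For Col1a1 with Col3a1 it was 0.96, and for Col1a2 with Col3a1 0.90 (exact permutation p = 0.0028 for both, adjusted 0.014). Spearman's rho was 0.89, 0.94 and 0.94 for these 3 pairs (exact permutation p = 0.033, 0.017 and 0.017, adjusted 0.11, 0.083 and 0.083). None of the 3 rank correlations passed the adjustment. Leaving out the 2 arrays farthest from the median of the first gene, which were both number 1 arrays, gave r of 0.60, 0.98 and 0.72. The relation of Col1a2 to the other 2 chains therefore rested in part on the number 1 arrays. The deviations from the day means correlated at 0.98, 0.99 and 0.97, and in the background-corrected values described below r was 0.86, 0.83 and 0.58. The 6 arrays may not be independent samples, and genes on 1 array share its labelling and scaling. The permutations treated all 6 arrays as exchangeable. Arrays of like number or title style resembled each other, with deviations from the day means correlated at 0.27, 0.48 and 0.60 over genes. The permutation p-values may therefore be too small.

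For Fn1 and Sparc the relation to the collagens depended on the values used. Fn1 correlated with Col1a1, Col1a2 and Col3a1 at r of 0.66, 0.55 and 0.79, with rho of 0.83, 0.60 and 0.77 (exact permutation p for r of 0.17, 0.26 and 0.075, adjusted 0.34, 0.43 and 0.19; for rho 0.058, 0.24 and 0.10, adjusted 0.15, 0.40 and 0.21). Without the 2 farthest arrays r was 0.98, 0.59 and 0.98. Sparc correlated with the 3 collagens at r of -0.32, -0.37 and -0.44 and with Fn1 at -0.27, with rho of -0.086, -0.49, -0.26 and 0.14 (exact permutation p for r from 0.40 to 0.61, for rho from 0.36 to 0.92). After adjustment these p-values ran from 0.51 to 0.92. Without the 2 farthest arrays, r of Sparc was -0.26, -0.88 and -0.37 with the collagens and -0.63 with Fn1. For the pair with Fn1 the arrays left out were day 3 number 2 and the unnumbered day 0 array, not the number 1 arrays. None of these 7 relations passed the adjustment. In the background-corrected values r of Fn1 with Col1a1, Col1a2 and Col3a1 was 0.69, 0.84 and 0.39, and that of Sparc with the 3 collagens turned positive, at 0.16, 0.41 and 0.11, while it was -0.063 with Fn1. Whether any relation was closer than another was not tested.

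The 2 genes of the array most like the mean of the standardised collagen signals over the 6 arrays, among 15434 compared, have no symbol here. They were picked for the highest r, so its size follows from that choice and is no evidence of a relation. ENSRNOG00000026652 (r of 0.99 over 6 arrays) read 235, 16.4 and 16.5 units at day 3 and 181, 21.4 and 61.4 units at day 0 on number 1, number 2 and the unnumbered array. ENSRNOG00000028965 (also 0.99) read 38.7, 16.7 and 16.9 units at day 3 and 39.1, 17.9 and 25.5 units at day 0. On day 3 number 2 and the unnumbered day 3 array, where the detection limit was 15.7 and 16.4 units, both lay barely above it. On the same measure 5.29% of the genes compared were closer to the collagen mean than Fn1 (r of 0.68), and 74.3% were closer than Sparc (r of -0.38).

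The design asks what changes between day 3 and day 0, and the answer depends on how the background is treated, which the files allow in 3 ways. The first subtracts the deposited background median by normexp, a model-based subtraction, with an offset of 50 and quantile normalisation. These are the background-corrected values. The second takes log2 of the signal itself plus 50 with the same normalisation. The third takes log2 of the authors' deposited table, whose columns were found to be straight lines of the spot signal, with a constant close to the blank-spot mean subtracted and the median gene set to 25 on each array.

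The background column followed the spot signal over gene spots, with a Spearman correlation of 0.92 to 0.97 on each array. Over all genes the median share of background in signal was 65.2% to 78.7% per array. Among the 5 genes the highest share was that of Sparc. The Sparc background was 227, 187 and 724 units at day 3, against 154, 126 and 400 at day 0, which is 73.2% to 101% of its signal. On day 3 number 2 its share of 73.2% lay below that array's median of 78.7%, and on the other arrays it lay above the median. On the unnumbered array of each day, where the Sparc signal was highest, the background exceeded it. The background-corrected log2 value was therefore lowest there, at 6.18 for the unnumbered array of day 3 and 6.17 for that of day 0, against 6.92 and 7.26 on the numbered day 3 arrays and 6.75 and 6.76 on the numbered day 0 arrays. For Col3a1 the background was 6.9% to 32.4% of the signal, for Col1a1 21.9% to 60.7%, for Col1a2 17.0% to 70.6% and for Fn1 21.7% to 78.9%. Over all genes, 0.45% to 3.8% of spots per array had a background above their signal.

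**Figure D3:**
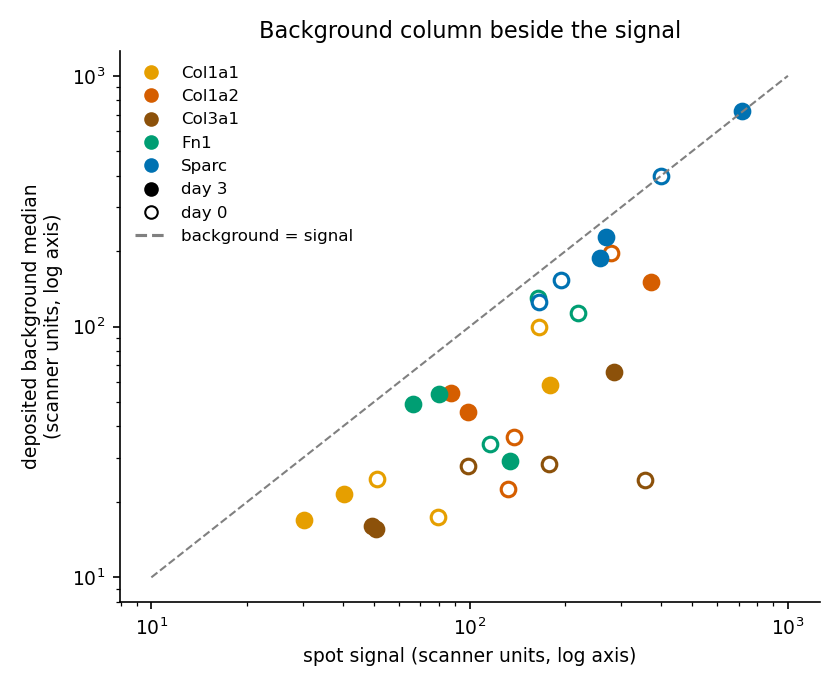
Deposited background median against spot signal, both in scanner units on log axes, for the 5 genes on the 6 arrays, with filled points for day 3, open points for day 0 and a dashed line where both are equal. Sparc lies at 73.2% to 101% of its signal, on or near the line, while Col3a1 lies at 6.9% to 32.4%. The median over all genes is 65.2% to 78.7% per array.

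None of the 5 genes passed the test of day 3 against day 0 in any of the 3 sets of values (limma, adjusted p under 0.05 over all genes tested), and 0 of 5 had an unadjusted limma p under 0.05. The share of all genes called was 0.0324% with the background-corrected values, 1.04% with the signal itself and 2.4% with the authors' table, so that 0 of 5 is near the background in each. The day 3 and day 0 log2 signals overlapped for all 5 genes, while 19.3% of the genes tested had no overlap. The median log2 difference of the 5 genes was 0.077, -0.090 and -0.47 in the 3 sets, against 0.0014, -0.0042 and -0.0069 over all genes tested.

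For the collagens the intervals of the difference were wide and held changes in either direction. With the background-corrected values, day 3 minus day 0 was 0.077 on the log2 scale for Col1a1 (95% interval -0.91 to 1.06, limma adjusted p = 0.998) and 0.10 for Col1a2 (-1.01 to 1.21, limma adjusted p = 0.998). With the signal itself the differences were -0.090 (-1.47 to 1.29) and 0.072 (-1.31 to 1.45), and with the authors' table -0.47 (-2.09 to 1.16) and 0.066 (-1.18 to 1.31). The sign of Col1a1 thus turned between the sets. Col3a1 was lower at day 3 in each set, at -0.43 (-1.95 to 1.09), -0.49 (-2.15 to 1.18) and -0.93 (-2.50 to 0.64), with limma adjusted p = 0.97, 0.90 and 0.87, and did not pass. The day 3 number 1 array weighed on all 3: without it, the signal itself gave -0.64 for Col1a1, -0.49 for Col1a2 and -1.14 for Col3a1 (limma adjusted p = 0.52, 0.60 and 0.36). The difference of Col3a1 lay closer to 0 when some other arrays were left out, and farther from it with others. Without day 0 number 1 it was -0.020 after background correction and -0.15 in the signal itself (limma adjusted p = 0.999 and 0.979). Without the unnumbered day 3 array it was -0.18 and -0.14 (limma adjusted p = 0.998 and 0.976), and without day 3 number 2 -0.19 and -0.20. Without day 0 number 2 it was -0.72 and -0.77, and without the unnumbered day 0 array -0.53 and -0.53.

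Within the 3 pairs of arrays that share a number or title style, Col1a1 and Col1a2 did not keep 1 direction, and for Col3a1 this depended on the values used. On the log2 signal scale, day 3 minus day 0 was 0.46, -0.28 and -0.45 for Col1a1 in pair 1, pair 2 and the unnumbered pair, and 0.71, -0.12 and -0.38 for Col1a2. With the background-corrected values the same differences were 0.66, -0.12 and -0.31 for Col1a1 and 1.08, -0.37 and -0.41 for Col1a2. Col3a1 differed by 0.13, -0.48 and -1.11 with the signal itself, and by -0.26, -0.31 and -0.71 with the background-corrected values, where 15.5% of genes were lower in all 3 pairs. In the authors' deposited table its ratios of day 3 over day 0 were 0.92, 0.61 and 0.26, below 1 in each pair, as 17.5% of genes were in that table. The day 3 number 1 array was dimmer as a whole, with a median gene signal of 26.4 units against 34.6 on day 0 number 1, and pair 1 of Col3a1 had a spot signal ratio of 0.80 before scaling.

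**Figure D4:**
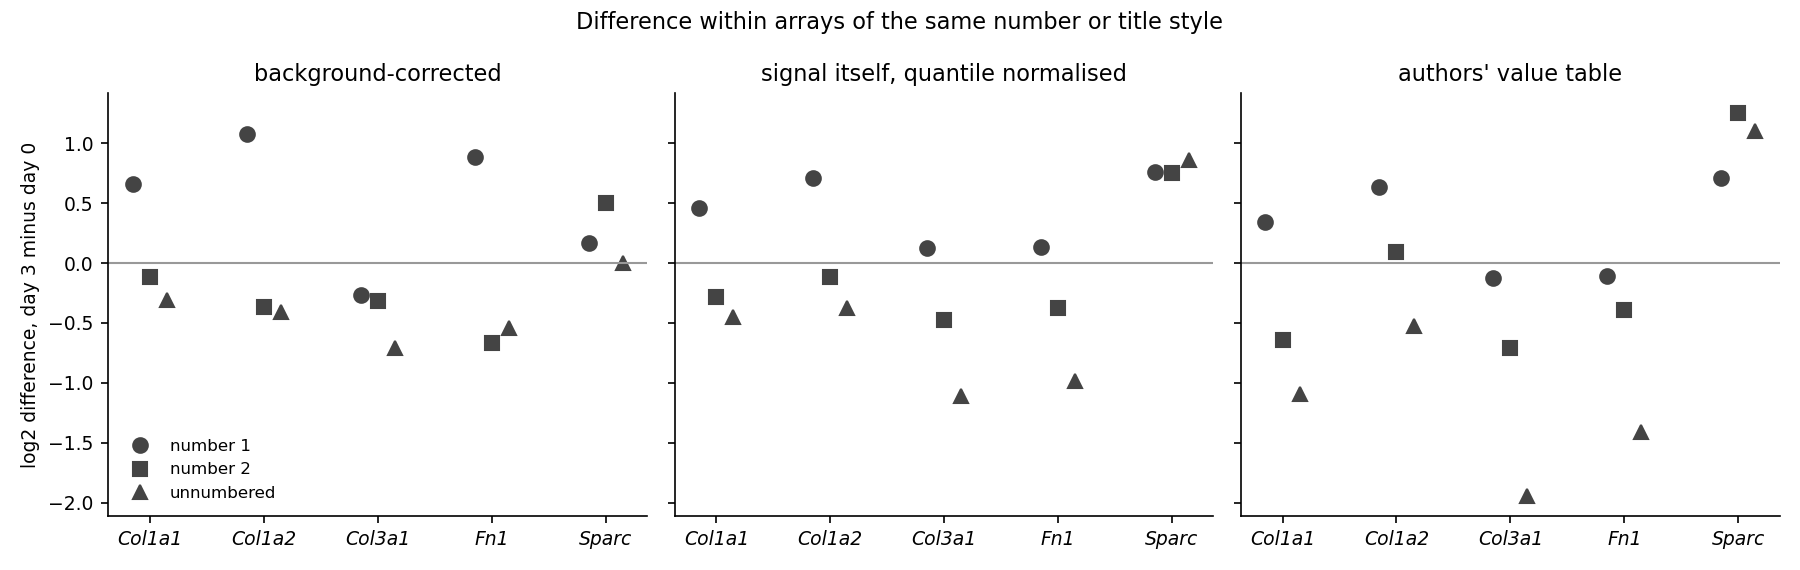
Log2 difference, day 3 minus day 0, of the 5 genes within each pair of arrays that share a number (1 or 2) or the unnumbered title style, for the background-corrected values (left), the signal itself after quantile normalisation (middle) and the authors' deposited table (right). Sparc is above 0 in all 3 pairs in each panel, by 0.0046 in the unnumbered pair of the left one, while for Col1a1 and Col1a2 the pairs lie on both sides of 0.

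Fn1 was lower at day 3 on average in each set of values without passing the test. The authors' deposited table gave 81.4, 36.5 and 42.3 at day 3, against 87.9, 47.9 and 113 at day 0 on number 1, number 2 and the unnumbered array. Each day 3 value of that table was below its partner, as for 17.5% of its genes. Pair 1 ran the other way in the other sets: day 3 minus day 0 in pair 1, pair 2 and the unnumbered pair was 0.13, -0.37 and -0.99 with the signal itself and 0.88, -0.67 and -0.55 with the background-corrected values. The log2 difference was -0.64 (95% interval -1.57 to 0.30, limma adjusted p = 0.79) with that table, -0.41 (-1.11 to 0.29, limma adjusted p = 0.67) with the signal itself and -0.11 (-0.98 to 0.76, limma adjusted p = 0.998) with the background-corrected values. An exact permutation test (two-sided) of the mean log2 signal, which with 3 arrays a day cannot give a p under 0.1, gave p = 0.30 for Fn1.

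Sparc was higher at day 3 on average in each set of values, and it passed the test in the signal itself, with the pairs or the title style in the fit. The authors' deposited table held 172, 170 and 453 at day 3, against 105, 71.1 and 211 at day 0, ratios of 1.63, 2.39 and 2.15 in the 3 pairs. On the log2 signal scale the 3 differences were 0.76, 0.75 and 0.86, and with the background-corrected values 0.17, 0.50 and 0.0046. Of the 15437 genes tested, 21.6% were higher on the day 3 array in all 3 pairs of the signal itself, as were 14.6% in the authors' table and 16.4% with the background-corrected values. Without the pairs in the fit, the signal itself gave a difference of 0.79 (95% interval -0.33 to 1.92, limma adjusted p = 0.58), while the difference was 1.02 in the authors' table (-0.032 to 2.08, limma adjusted p = 0.50) and, in the background-corrected values, 0.22 (-0.66 to 1.11, limma adjusted p = 0.98). The exact permutation test over arrays gave p = 0.30 for the signal itself, and the unnumbered day 0 array read above both numbered day 3 arrays. Without the unnumbered day 0 array the difference was 1.14 (limma adjusted p = 0.38), and without the unnumbered day 3 array 0.42 (limma adjusted p = 0.82).

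With the pairs as a block, Sparc rose at day 3 in the signal itself by 0.79 on the log2 scale, 1.73-fold (95% interval 0.67 to 0.92, limma adjusted p = 0.0434), where 0.615% of genes were called as rises. With title style alone as the block, the limma adjusted p was 0.0215, where 1.03% of genes were called as rises. Within the numbered arrays alone the difference was 0.77 (limma adjusted p = 0.146), and the unnumbered pair, with 1 array a day, gives 0.86 with no test. The call did not extend to the other values: with the pairs as a block the authors' table gave 1.02 (0.32 to 1.72, limma adjusted p = 0.0503, in a fit with the same SE of 0.36 for each of the 5 genes) and the background-corrected values 0.22 (-0.18 to 0.63, limma adjusted p = 0.75). With the same block Col3a1 had a negative difference with an interval below 0 in the authors' table, at -0.93 (-1.63 to -0.23, limma p = 0.0093, adjusted 0.093), and with the background-corrected values, at -0.43 (-0.81 to -0.042, limma p = 0.039, adjusted 0.55). With the signal itself it was -0.49 (-1.35 to 0.37, limma adjusted p = 0.48). Col3a1 did not pass the adjustment in any of them, and with this block Col1a1, Col1a2 and Fn1 passed in none of the 3 sets. The labels do not say that the numbers pair the cultures, and the pairs were taken from these same data alone. The call of Sparc therefore rests on a pairing that the labels do not give. Whether Sparc differs in its change from the collagens was not tested.

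**Figure D5:**
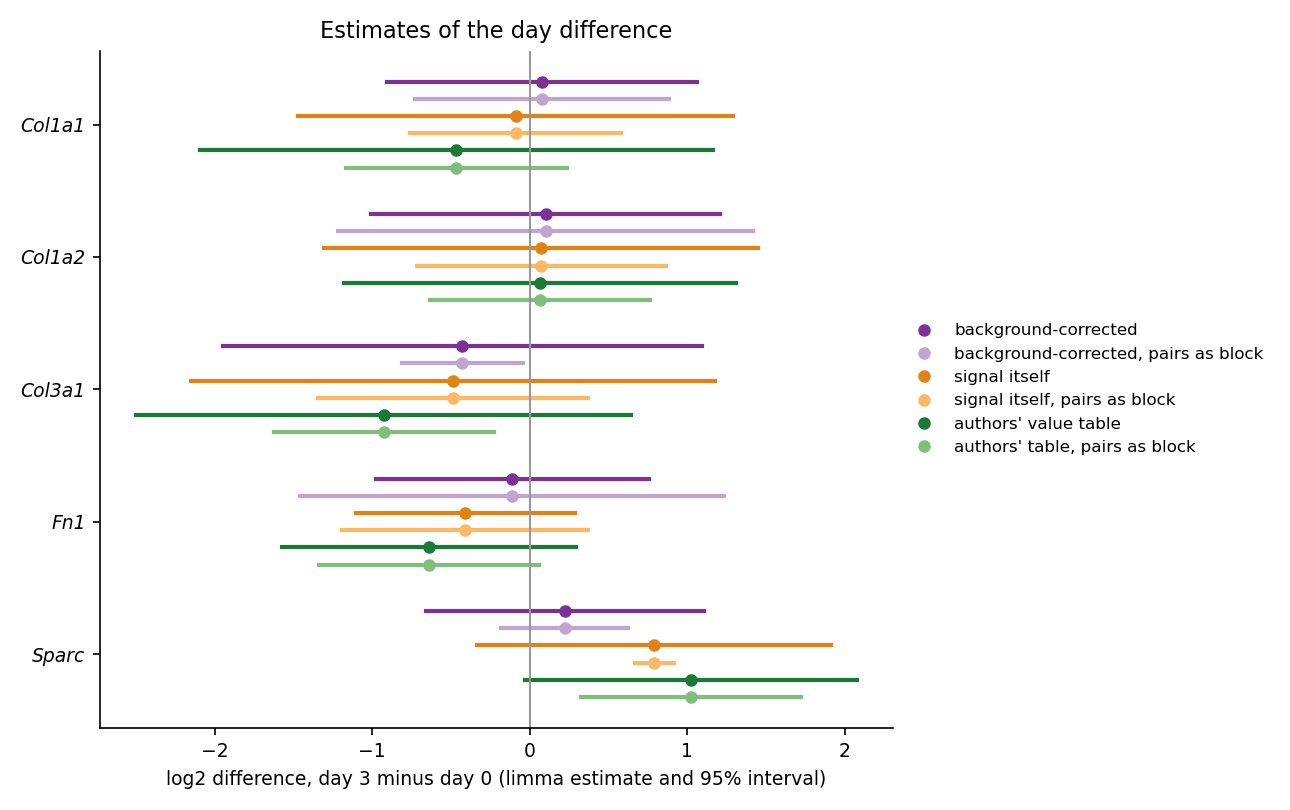
Log2 difference, day 3 minus day 0, of the 5 genes as estimated by limma, with bars for the 95% interval, for the background-corrected values, the signal itself and the authors' deposited table, each also fitted with the pairs as a block. The interval of Sparc with the signal itself runs between 0.67 and 0.92 with the pairs as a block and between -0.33 and 1.92 without it. That of Col3a1 lies below 0 with the pairs as a block in the table and the background-corrected values, while those of Col1a1, Col1a2 and Fn1 include 0 in each fit shown. In the table with the pairs as a block, the 5 genes share the same SE, so the interval there does not reflect each gene's own spread.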

How the data were processed

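Total RNA from 6 samples of cells was amplified, labelled with Cy5 and hybridised to 1-colour arrays, per the labels' protocols. Per the file headers, the authors deposited 2 intensity columns per array, the spot median at 635 nm and a background median, and no scaling between arrays is recorded. Their value table holds a linear intensity per gene whose unit is not stated. Each column lay within 1e-05 of a straight line of that array's signal, with 12.5 to 15.4 units subtracted, a median of 25 over the listed genes on every array and no value for genes near or below the limit. Scanner and software were not given in the sources used.

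The background-corrected values (normexp, offset 50, quantile) were the planned main values, fitted with limma 3.58.1 in R 4.3.3 without a block. A gene was tested (15437 in all) if every array of a day lay above its limit, or, for the authors' table, if it was listed on all 6 arrays (14431), where log2 was taken with no pseudocount and no further scaling. Adjustment was by Benjamini-Hochberg over all genes tested, with a threshold of 0.05. The offset makes log2 differences of dim genes too small. The fit was tested on simulated data.

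Groups were taken from the titles, as 3 arrays at day 3 and 3 at day 0. To check the pairing, deviations from the day means were correlated over genes between arrays of like number, with the unnumbered arrays as the last pair. They were 0.27, 0.48 and 0.60 in the signal itself, all over 0.1, and the numbers were taken as pairs there, on the data alone. In the background-corrected values they were 0.088, 0.14 and 0.24. Alternatives concerned the background, the offset, the scaling, the filter, the variance model, blocks and arrays left out. The members, lists and tests were chosen with earlier results of these data known. The printed genes are the 5 members and the 2 identifiers closest to the collagen mean. Lists of matrix genes and cell markers, written by symbol, could not be matched to identifiers and were not used. The number of arrays limits the precision.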

Additional observations from a re-analysis of the deposited data

How the results depend on the processing

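All 5 genes were above the limit on 6 of 6 arrays with either other limit, and none was called in any of the 35 alternatives except Sparc. Col3a1 was lower at day 3 in all of them. Counts of rises and falls over all genes, 4 and 1 with the background-corrected values, were 24 rises with plain subtraction, 13 and 3 with 75th percentile scaling, 4 falls with median scaling, 8 rises with trend and robust, 2 and 0 with title style as a block, and 0 and 0 with the replicate block (limma, 1347 genes at unadjusted p under 0.05). The 4 numbered arrays by themselves also gave 0 and 0 (limma, 1149 such genes). The signal itself gave 112 and 49, with offset 16 147 and 70, 75th percentile scaling 186 and 67, median scaling 80 and 62, no filter 64 and 33, the stricter filter (above the limit on 6 of 6 arrays) 110 and 51, trend and robust 294 and 97, replicate block 95 and 42, title style block 159 and 114, and numbered arrays alone 0 and 0 (limma, 1998 genes at an unadjusted p under 0.05). The authors' table gave 266 and 81, 644 and 553 with the replicate block and 493 and 289 with the title style block; both of these fits were chosen after seeing the data. Leaving out 1 array gave 0 to 76 rises and 0 to 19 falls over both the background-corrected values and the signal itself. The 75th percentile scaling moved the median of all genes by 0.16 and, in the signal itself, 0.12.

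Col1a1, 0.077 in the background-corrected values, turned to -0.15 with plain subtraction, -0.045 with median scaling and -0.47 with the authors' table, with or without either block. In the signal itself it was -0.090 (also with no filter, with the stricter filter, with trend and robust and with either block), -0.19 with offset 16, -0.033 with 75th percentile scaling and -0.17 with median scaling. Col1a2 turned to -0.0028 with plain subtraction, -0.079 with median scaling and -0.049 with median scaling of the signal itself, and Fn1 to 0.11 with the numbered arrays alone. Leaving out 1 array gave -0.64 to 0.29 for Col1a1, -0.49 to 0.43 for Col1a2, -1.14 to -0.020 for Col3a1, -0.66 to 0.078 for Fn1 and -0.016 to 1.14 for Sparc. Sparc was called at 0.79 in the signal itself with the replicate block or title style block, and the replicate block changed no other call. The cause of these changes was not tested.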
